A study of Mus musculus with 12 samples.

Results

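The p53 target genes examined here were 10 genes taken by name: Cdkn1a, Mdm2, Ccng1, Fas, Sesn1, Sesn2, Bax, Zmat3, Btg2 and Phlda3. They are known targets of p53, but were chosen with earlier results of these data known. Every probe annotated to 1 of these symbols on an Illumina mouse bead array was taken, which gave 23 probes for 9 of the 10 genes, out of 19057 genes named by any of the 45281 probes. Bax is not analysed here, as no probe carried its name. A probe was kept where it was detected on at least 4 of the 12 arrays, and 17 of the 23 probes, for 8 genes, passed. The only probe of Btg2 was below the detection level on all 12 arrays.

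The arrays measured total RNA of NIH-3T3 cells, mouse embryo fibroblasts grown as an immortal line, with 4 arrays in each of 3 groups that the titles call biological replicates. The groups were unmodified cells (WT), a stable clone with a short hairpin named for Snhg3, the host transcript of the small nucleolar RNA U17 (U17_KD), and a stable clone with the construct pMDβglobinU17b, labelled as overexpressing U17 (U17_OE). All 3 groups were grown for 24 hours in LPDS medium (lipoprotein-deficient serum), so the controls shared this medium. Each manipulated group is 1 clone, compared with cells that are not labelled as carrying a control construct, so that the level of U17, the construct and the history of the clone cannot be told apart, and the p-values measure only the spread between arrays of these cultures. No probe was named Snhg3, Snora73a or Snora73b (the U17 genes), so the labels were not checked by the target itself. Of 12 fibroblast markers, 10 were detected on all 12 arrays and Postn on none. Of 22 measured markers of epithelial, endothelial, blood, fat and muscle cells, 0 were detected on all arrays, 7 on at least 4 and 15 on none. The summed intensity of the fibroblast markers was 59007 to 66366 in WT, 82148 to 90399 in U17_KD and 60088 to 66009 in U17_OE, and the part of this difference in the results below was not tested. U17_OE replicate 3 stood apart from its group, its mean SD of log2 differences from its group mates being 0.426, where the remaining arrays had 0.230 to 0.340.

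The protein p53 is a transcription factor that is kept scarce by the ubiquitin ligase Mdm2, itself a p53 target, so that the pair forms a feedback loop. Damaged DNA, oncogene signalling and faulty ribosome production each stabilise p53. In the last of these, ribosomal proteins that are not built into ribosomes bind Mdm2 and restrain it. U17 is an H/ACA box small nucleolar RNA whose yeast counterpart, snR30, is required to process the precursor of small-subunit ribosomal RNA, and the question of this comparison is whether a clone labelled as having less U17 also shows higher transcripts of p53 targets. Target genes act in cell cycle arrest (Cdkn1a, Btg2, Ccng1), cell death (Fas, Bax, Phlda3), control of growth signalling and redox state (Sesn1, Sesn2), RNA stability (Zmat3) and feedback on p53 (Mdm2, Ccng1). NIH-3T3 cells are known to have lost the Cdkn2a locus, which encodes the Mdm2 inhibitor Arf.

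In the knockdown clone 4 of the 8 measured genes were higher than in WT and 1 was lower. Fas was 3.99-fold higher and Sesn1 2.05-fold, Phlda3 1.42-fold and Zmat3 1.35-fold, while Mdm2 was 1.33-fold lower. Cdkn1a, the most widely used readout of p53 activity, differed from WT by 0.087 ± 0.11 SE on the log2 scale and was not called, and neither were Ccng1 and Sesn2. Across all 9108 measured genes, 20.0% were called higher and 20.4% lower in this comparison, so that calls in either direction were common. In the overexpression clone Fas (2.06-fold) and Sesn1 (1.32-fold) were higher and none of the 8 was lower, against 6.48% of all genes called higher and 6.37% lower. Calls are limma adjusted p-values under 0.05, corrected over the 16706 kept probes.

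The p53 protein binds DNA as a tetramer through paired copies of a decamer, and the start regions of the member genes were read for this decamer. The RefSeq windows of GRCm38.p6 hold 250 bases before and 50 after a start, and 11 windows were found for 9 of the 10 members. An exact decamer was present in 5 of the 11 windows, against 8.36% of all 32851 windows of the same length. The decamer reads the same on both strands, so 1 scan covers both. Of the 11 windows 2, those of Cdkn1a and Ccng1, held a pair of decamers spaced by at most 13 bases with at most 1 mismatch in the pair, against 0.627% of all windows. The members were chosen as known p53 targets, which favours such sites, so these shares carry no test. The matches of 4 measured members are printed with 15 bases on each side, 5′ to 3′ on the strand of the gene, with the decamers in capitals (for Ccng1 and Cdkn1a also a partner decamer with 1 mismatch), because they show what the start regions of called and uncalled members hold.
Cdkn1a: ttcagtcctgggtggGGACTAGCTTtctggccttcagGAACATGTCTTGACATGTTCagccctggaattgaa
Ccng1: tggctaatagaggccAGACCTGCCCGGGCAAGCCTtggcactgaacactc
Mdm2: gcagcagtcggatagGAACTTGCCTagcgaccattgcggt
Sesn1: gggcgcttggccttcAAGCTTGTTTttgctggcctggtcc
They lie at chr17:29090891-29090962 (plus strand) for Cdkn1a, chr11:40755447-40755496 (minus strand) for Ccng1, chr10:117710920-117710959 (minus strand) for Mdm2 and chr10:41887251-41887290 (plus strand) for Sesn1, all upstream of the annotated start. Sesn1 and Cdkn1a each have another listed start, whose window held no match. The windows of Fas, Phlda3, Sesn2 and Btg2 held no exact decamer, and Zmat3 had no window. These windows are short, so the scan says nothing of sites in introns or farther upstream.

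Fas, the cell surface receptor through which Fas ligand starts apoptosis, changed most. The normalized intensity of its brightest probe was 136, 100, 126 and 98 on WT arrays 1 to 4, 542, 466, 465 and 535 on the U17_KD arrays and 248, 297, 220.0 and 243 on the U17_OE arrays. The 3 groups did not overlap, with WT lowest, the overexpression clone between and the knockdown clone highest. On the log2 scale the means were 7.01 ± 0.21 (SD, n = 4), 9.01 ± 0.12 and 8.05 ± 0.17. The difference from WT was 2.00 ± 0.12 SE in U17_KD (limma adjusted p = 3.66e-10) and 1.04 ± 0.12 SE in U17_OE (adjusted p = 1.55e-05), and U17_KD exceeded U17_OE by 0.96 ± 0.12 SE (adjusted p = 9.36e-06). A second detected probe gave 65.5, 62.3, 75.2 and 82.5 in WT, 271, 270.0, 266 and 219 in U17_KD and 152, 140.0, 129 and 119 in U17_OE. It kept the same order without overlap, with differences from WT of 1.65 ± 0.12 SE and 0.80 ± 0.12 SE. The other 2 Fas probes were below the detection level on all 12 arrays.

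**Figure D1:**
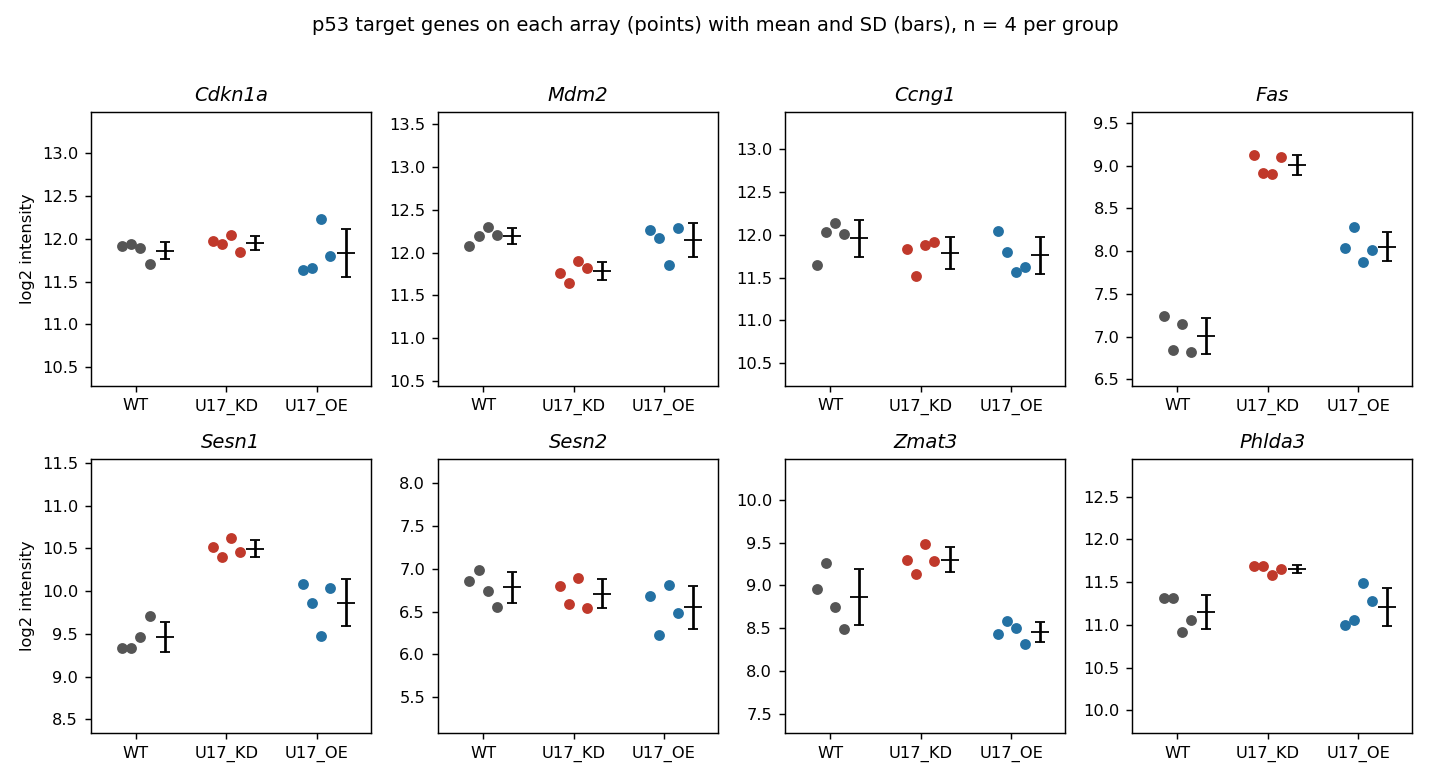
Log2 intensity (y axis) of the brightest kept probe of each of the 8 measured p53 target genes on every array (points), by group (x axis), with the mean and SD of 4 arrays beside the points. All panels span the same range of log2 units, so that the 3 separate groups of Fas, and the U17_KD arrays of Sesn1 above all others, can be compared with the overlap for Cdkn1a, Ccng1 and Sesn2.

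Sesn1 and Sesn2 encode sestrins, stress proteins that restrain the growth kinase complex mTORC1. Sesn1 read 630.1, 633, 694 and 825 on the WT arrays, 1449, 1337, 1563 and 1387 in U17_KD and 1069, 915, 700.0 and 1035 in U17_OE. All U17_KD arrays were above all others, whereas the U17_OE range overlapped WT through replicate 3. The difference from WT was 1.03 ± 0.12 SE in U17_KD (adjusted p = 1.97e-06) and 0.40 ± 0.12 SE in U17_OE (adjusted p = 0.0389). The call in U17_OE was lost under 13 of 23 alternatives, with adjusted p-values of 5.34e-04 to 0.134 over all of them. Without U17_OE replicate 3 the difference was 0.53 (adjusted p = 5.34e-04). U17_KD was above U17_OE by 0.63 ± 0.12 SE (adjusted p = 5.97e-04). A second Sesn1 probe had 0.72 ± 0.11 SE in U17_KD and 0.35 ± 0.11 SE in U17_OE, both called. The third was detected on 0 of 4 WT arrays, 4 of 4 U17_KD arrays and 2 of 4 U17_OE arrays. Its fitted difference in U17_KD was 0.95 ± 0.17 SE (adjusted p = 2.11e-04), and the bound was at least 1.51-fold. This probe passed the filter only through clone arrays, so its rise is no separate support.

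Sesn2, which is also a target of the stress factor ATF4, read 101, 111, 92.2 and 79 in WT, 96.7, 81.4, 104 and 78 in U17_KD and 87.3, 59.9, 96.9 and 74.7 in U17_OE. The 3 groups overlapped, and the differences from WT were -0.079 ± 0.15 SE (95% interval -0.39 to 0.23, adjusted p = 0.718) and -0.24 ± 0.15 SE (-0.55 to 0.076, adjusted p = 0.362). Its 2 other probes were below the detection level on every array.

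Phlda3, which encodes a small protein that competes with the kinase Akt for membrane lipid, read 2529, 2529, 1922 and 2112 in WT, 3278, 3276, 3050.4 and 3215 in U17_KD and 2031, 2111, 2858 and 2474 in U17_OE. All 4 U17_KD arrays lay above all arrays of the other groups. The difference from WT was 0.50 ± 0.11 SE in U17_KD (adjusted p = 0.00112) and 0.055 ± 0.11 SE in U17_OE (95% interval -0.17 to 0.28, adjusted p = 0.805), and U17_KD exceeded U17_OE by 0.45 ± 0.11 SE (adjusted p = 0.00381). The second, dimmer probe had 0.69 ± 0.17 SE in U17_KD (adjusted p = 0.00263) and 0.029 ± 0.17 SE in U17_OE.

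Zmat3, whose zinc finger protein binds RNA and alters the stability of messenger RNAs, had 1 probe, with 481, 601, 417 and 345 in WT, 613, 548, 703 and 609 in U17_KD and 331, 369, 348 and 303 in U17_OE. The WT arrays overlapped the range of each clone, while the clones did not overlap each other. U17_KD was above U17_OE by 0.84 ± 0.14 SE (adjusted p = 1.01e-04). Against WT the difference was 0.43 ± 0.14 SE in U17_KD (adjusted p = 0.0162) and -0.41 ± 0.14 SE in U17_OE (adjusted p = 0.0596). Both of these depended on single arrays. The call in U17_KD was lost without WT replicate 4 (0.31, adjusted p = 0.0724) and without U17_KD replicate 3 (0.37, adjusted p = 0.0622). The difference in U17_OE was called without WT replicate 4 (-0.53, adjusted p = 0.0142), without U17_OE replicate 3 (-0.42, adjusted p = 0.0330) and with array weights (adjusted p = 0.0417).

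Mdm2, the ubiquitin ligase of the feedback loop, fell in the knockdown clone. Its brightest probe read 4299.9, 4681, 5026 and 4711 in WT, 3463, 3195, 3798 and 3607 in U17_KD and 4923, 4605, 3691 and 5003 in U17_OE. Every U17_KD array was below every WT array, and U17_OE replicate 3 lay within the U17_KD range. The difference from WT was -0.41 ± 0.092 SE in U17_KD (adjusted p = 0.00167) and -0.047 ± 0.092 SE in U17_OE (95% interval -0.24 to 0.15, adjusted p = 0.811). The clones differed by -0.37 ± 0.092 SE (U17_KD minus U17_OE, adjusted p = 0.00551). A second probe had -0.43 ± 0.10 SE in U17_KD (adjusted p = 0.00215) and -0.15 ± 0.10 SE in U17_OE, and the third was below the detection level on all arrays.

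Ccng1, cyclin G1, which recruits a phosphatase to Mdm2, read 3189.5, 4191, 4487 and 4117 in WT, 3641, 2911, 3760.3 and 3843 in U17_KD and 4215, 3551, 3015 and 3146 in U17_OE. The ranges overlapped, with differences from WT of -0.17 ± 0.12 SE (95% interval -0.42 to 0.078, adjusted p = 0.282) and -0.20 ± 0.12 SE (-0.45 to 0.051, adjusted p = 0.333). Its 2 other probes had 0.10 and -0.068 in U17_KD and -0.047 and 0.017 in U17_OE, and none of the 3 probes was called in either clone. The paired decamer printed above for Ccng1 thus belongs to a transcript that was not called.

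Cdkn1a encodes p21, the inhibitor of cyclin-dependent kinases that carries out much of the arrest set by p53. Its brightest probe read 3844, 3906, 3776 and 3338 in WT, 3996, 3914, 4209 and 3666 in U17_KD and 3167, 3209.7, 4813 and 3543 in U17_OE. U17_KD and WT overlapped, and U17_OE replicate 3 was the highest of all 12 arrays while its 3 group mates were among the 4 lowest. The difference from WT was 0.087 ± 0.11 SE in U17_KD (95% interval -0.14 to 0.31, adjusted p = 0.568) and -0.032 ± 0.11 SE in U17_OE (-0.26 to 0.19, adjusted p = 0.898). The other 2 probes had 0.080 and -0.028 in U17_KD, with intervals of -0.24 to 0.40 and -0.39 to 0.34, so that a rise of the size seen for Sesn1 lay outside the interval of each of the 3 probes. U17_KD minus U17_OE was 0.12 ± 0.11 SE (adjusted p = 0.453), and it was called without U17_OE replicate 3 (0.25, adjusted p = 0.0106). At both dimmer probes U17_OE replicate 3 was again the highest of the 12 arrays, with 1528 and 1102. Btg2, an antiproliferative gene, read -16.9 to -1.2 over the arrays, all under the detection level of 30.5, and has no comparison.

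**Figure D2:**
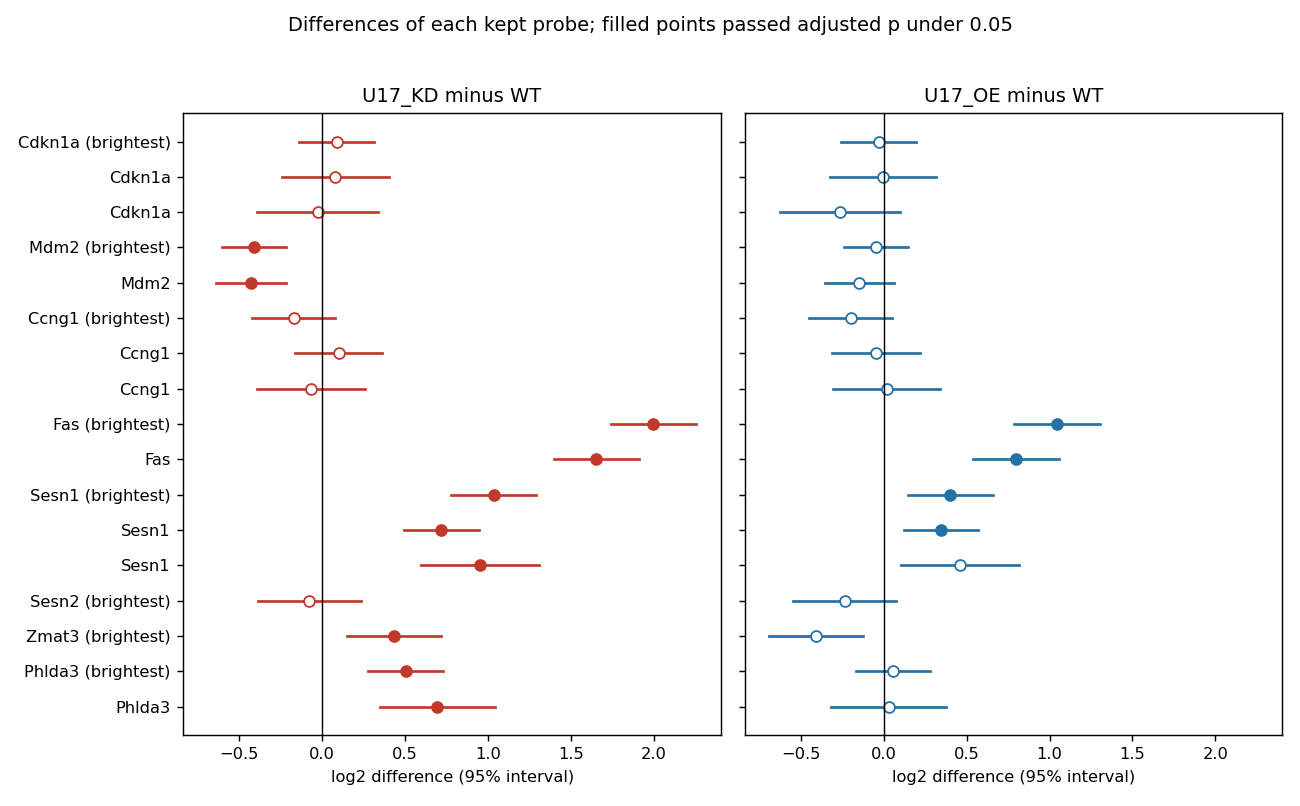
Log2 difference from WT (x axis) of each of the 17 kept probes of the p53 target genes (y axis) in U17_KD (left) and U17_OE (right), with 95% intervals from the limma fit; filled points passed an adjusted p of 0.05. In U17_KD every kept probe of Mdm2, Fas, Sesn1 and Phlda3 was called, in 1 direction per gene, with the Fas probes at 2.00 and 1.65.

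As a list, the members did not move one way. Over the 8 genes the median difference from WT was 0.26 in U17_KD and -0.039 in U17_OE, where the medians over all 9108 genes were -0.024 and -0.0058. By probe, 8 of 17 were higher and 2 lower in U17_KD (18.4% and 18.9% of all kept probes). Among the 8 is the third Sesn1 probe, which passed the filter only through clone arrays. In U17_OE 4 probes were higher and 0 lower (5.99% and 5.53%). The values did not overlap between U17_KD and WT for 4 of 8 genes, 3 higher and 1 lower (22.1% and 22.4% of all genes), and between U17_OE and WT for 1, Fas, which was higher (8.09% and 7.89%). Directly between the clones, Fas, Sesn1, Zmat3 and Phlda3 were higher and Mdm2 lower in U17_KD (16.5% and 16.5% of all genes). By probe this was 8 of 17 higher and 2 lower (14.8% and 15.2% of all kept probes), the third Sesn1 probe again being among the 8. The 8 genes are few and were picked with results of these data known, so their share of calls carries no test. The comparisons of both clones use the same WT arrays. The calls in U17_OE, 2 of 8, became 3 without WT replicate 4 or U17_OE replicate 3. They stayed at 2 without U17_KD replicate 3, and became 1 without any other single array. Over all genes these calls were 790 to 1788 over single arrays left out, against 1170.

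**Figure D3:**
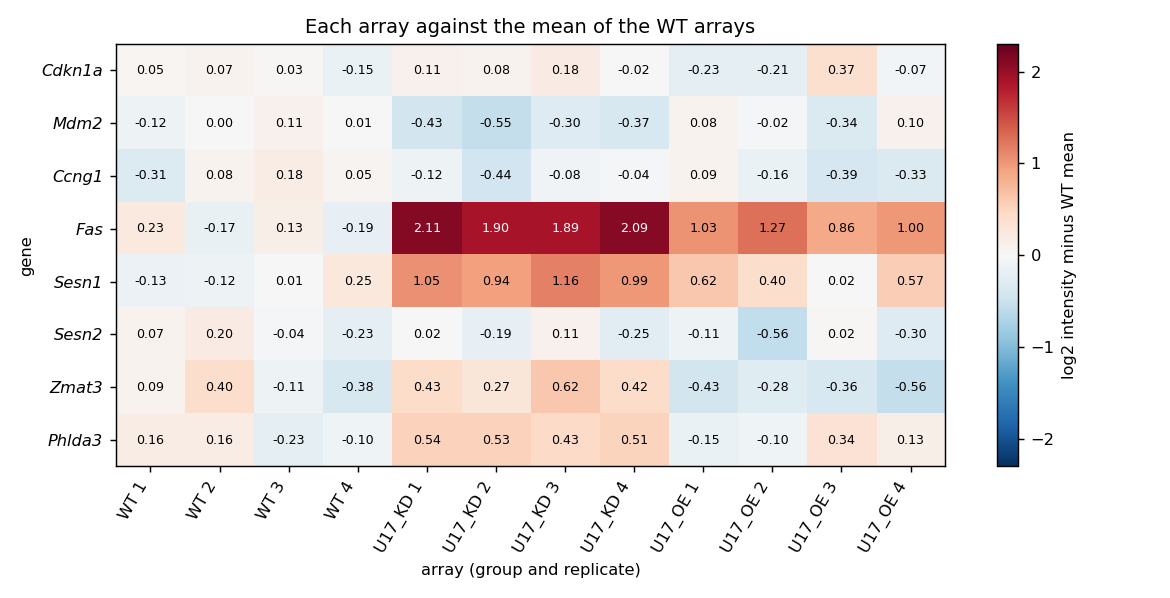
Log2 intensity of the brightest kept probe of each gene (rows) on each array (columns) minus the mean of the 4 WT arrays, with the value in each cell. Fas is above the WT mean on all 8 clone arrays. Within U17_OE, replicate 3 is the highest for Cdkn1a, Phlda3 and Sesn2 and the lowest for Mdm2, Sesn1, Fas and Ccng1.

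A wider list of 42 other p53 targets, of which 32 were measured, had 8 genes higher and 8 lower in U17_KD than in WT, with a median of 0.10. Over all genes 20.0% were higher and 20.4% lower, and the list lay near these shares. The largest rises were those of Trp53inp1, which promotes autophagy and cell death (0.64 ± 0.14 SE, adjusted p = 0.00111), the repair endonuclease Ercc5 (0.59), the ubiquitin ligase component Fbxo32 (0.58) and the BH3-only death gene Bid (0.57, 1 other probe not called). Falls were led by the LIM protein gene Crip2 (-1.32 ± 0.19, adjusted p = 2.20e-05), detected on 3 of 4 U17_KD arrays, the stress kinase Plk3 (-0.86), the ephrin receptor Epha2 (-0.79) and Kitl, the ligand of Kit (-0.57). In U17_OE 0 were higher and 3 lower (median 0.046), against 6.48% and 6.37% of all genes. These were Crip2 (-0.71), the kinase Dyrk3 (-0.59) and Epha2 (-0.46). Of the remaining list, 9 genes had no kept probe, among them the death genes Pmaip1 and Perp, and 1 had no probe.

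Among 18 measured genes that control p53, 3 were higher and 1 lower in U17_KD (median -0.15), against 20.0% and 20.4% of all genes. Without U17_OE replicate 3, with array weights and with only the compared groups in the fit, 3 were higher and 4 lower. With the mean of the kept probes 2 were higher and 5 lower. Over all genes the U17_KD calls went from 3685 to 4344 without U17_OE replicate 3, and were 3218 to 4550 over all alternatives. Mdm4, the Mdm2 relative that masks the activation domain of p53, rose by 0.57 ± 0.12 SE (adjusted p = 0.00136). The ubiquitin ligase genes Cop1 (0.39, 1 other probe not called) and Rchy1 (at least 1.25-fold, detected on 0 WT arrays) also rose. Rchy1 passed the filter only through clone arrays, so its call is no separate support. Trim28, a chromatin corepressor that works with Mdm2, fell by 0.72 (adjusted p = 3.10e-05). In U17_OE 2 were lower and 0 higher (median -0.045, with 6.37% and 6.48% over all genes), namely Ppp1r13b, which steers p53 toward death genes (-0.83, adjusted p = 0.00123), and the acetyltransferase Ep300 (-0.50, 1 other probe not called). Mdm4 had 0.094 there (adjusted p = 0.699). The Cdkn2a probe reached the detection level on 3 of 4 WT, 1 of 4 U17_KD and 2 of 4 U17_OE arrays. Its mean log2 intensity was 5.73 in WT, close to that level, and it was not called in either clone. As NIH-3T3 cells are known to have lost the locus, this signal cannot be read as its transcript. The transcript of p53 itself is not analysed here.

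Genes of the nucleolar route to p53, that is ribosomal proteins known to bind Mdm2, nucleolar proteins that act on Mdm2 or p53, and factors of ribosome production, were lower in U17_KD for 12 of 24 measured and higher for 1 (median -0.23), where 20.4% of all genes were lower and 20.0% higher. The genes lowest against WT were Ncl, nucleolin (-0.99 ± 0.11 SE, adjusted p = 5.74e-07), Grwd1, a ribosome assembly factor (-0.92), Rrn3, an initiation factor of RNA polymerase I (-0.78, detected on 3 of 4 U17_KD arrays), and Gnl3, nucleostemin (-0.73). The 1 gene higher was Rpl37 (0.17, adjusted p = 0.0201). Among the ribosomal protein genes only Rps7 was lower (-0.27, adjusted p = 0.0129). Rpl23, Rpl26, Rps3, Rps14, Rps15, Rps25 and Rps27l were not called in U17_KD. The other lower genes were thus all nucleolar proteins and factors of ribosome production. In U17_OE 4 were lower and 1 higher (median -0.067), where 6.37% of all genes were lower and 6.48% higher, with Ncl at -0.40 (1 other probe not called), Gnl3 at -0.33, Mybbp1a, which ties the nucleolus to p53, at -0.31 (1 of 3 other probes called), the polymerase subunit gene Polr1a at -0.27 (2 of 3 other probes called) and Rps15 at 0.41. Without U17_OE replicate 3 the count in U17_OE was 8 lower and 4 higher. It was 2 in all without WT replicate 4 or U17_OE replicate 4 and 3 without WT replicate 3. Over all genes the U17_OE calls were 1170, 1788 without U17_OE replicate 3, and at least 790 over single arrays left out. The ribosomal proteins Rpl5 and Rpl11, best known for binding Mdm2, are not analysed here.

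Active p53 lowers many cell cycle genes through p21 and the DREAM repressor complex. Of 31 measured genes of this kind 9 were lower and 3 higher in U17_KD (median -0.14), beside 20.4% and 20.0% of all genes. Rrm2, a subunit of ribonucleotide reductase, fell by 1.12 (SE 0.12, adjusted p = 9.11e-07), the phosphatase Cdc25a by 0.56 (1 other probe not called), the helicase subunit Mcm3 by 0.50 and the transcription factor E2f1 by 0.46. The 3 higher genes were Kif23 (1.08), of whose 3 other probes none was called, the checkpoint kinase Bub1b (0.34) and the centromere histone Cenpa (0.16), each of the latter with 1 other probe that was not called. In U17_OE 6 were lower and 1 higher (median -0.033), beside 6.37% and 6.48% of all genes. With no filter on dim probes, and with only the compared groups in the fit, 4 were lower and 0 higher. In the latter fit 738 genes were called in all, against 1170. The call of Kif23, the 1 higher gene, was lost in both. It was also lost with the mean of the kept probes, with no variance trend, and without WT replicate 1, 2 or 3, any 1 of the 4 U17_KD arrays or U17_OE replicate 4. Those lower were led by Rrm2 (-0.79, adjusted p = 3.27e-04), the repair gene Brca1 (-0.52), Mcm2 (-0.49) and the topoisomerase Top2a (-0.46, 2 other probes not called), and Kif23 had 0.39. Cdkn1a was not called in either clone beside these falls.

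**Figure D4:**
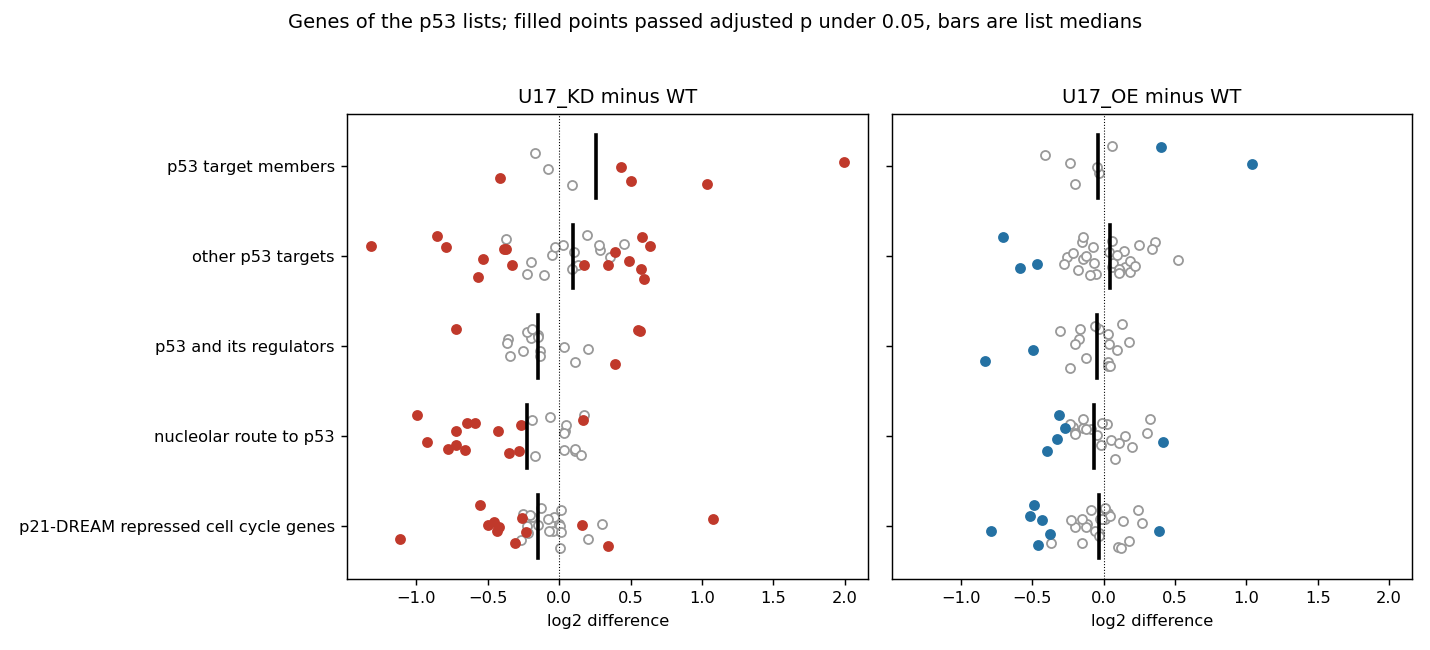
Log2 difference from WT (x axis) of every measured gene of the 5 lists (rows) in U17_KD (left) and U17_OE (right). Filled points passed an adjusted p of 0.05, and vertical bars are list medians, which in U17_KD run from -0.23 for the nucleolar route to 0.26 for the p53 target genes.

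Across the 12 arrays, the genes whose centred log2 profile was closest to that of Fas were Nnmt, a nicotinamide methyltransferase (root-mean-square difference 0.15), the glutathione transferase Mgst1 (0.175), Phactr1, which binds actin and a phosphatase (0.181), the transcription factor Osr2 (0.184) and the receptor chain Il13ra1 (0.185). They were higher in both clones, by 1.90 to 2.25 in U17_KD and 0.91 to 1.23 in U17_OE. This follows from their choice by likeness to Fas over the same arrays. None is on the p53 lists, which hold few of the 9108 measured genes. The closest profiles to Cdkn1a were those of Lancl1, Pars2, Fam234a, Wdr34 and Gpn3, with root-mean-square differences of 0.0528 to 0.0799, against an SD of 0.163 for Cdkn1a over the arrays. None of these 5 was called in either clone, which the choice by likeness to an uncalled gene made likely.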

How the data were processed

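RNA of 12 cultures of NIH-3T3 cells was measured, 1 array each. Per the labels, cDNA was made with oligo-dT and the label was biotin. GenomeStudio 2010 is named in the submitters' processing notes. The authors deposited a table of normalized probe intensity on a linear scale, with values below 0, and the method of normalization is not given in the sources used. Per the file headers, a second deposited table gives each probe's unnormalized intensity with its detection p-value. Of its 48 columns 8 were used, an intensity and a detection p-value for each WT array. The other 40 were not: they hold bead numbers and bead errors, or belong to arrays whose names match no label.

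The normalized values were corrected with normexp, using the background mean (0.492) and SD (15.8) estimated from the WT detection p-values, and log2 was taken after an offset of 16. The detection level, 30.5, averages over the WT arrays the smallest normalized value whose detection p-value was under 0.05, and it disagreed with the detection p-value for 0.155 to 1.51% of the probes there. Its use for the clone arrays was not tested. Each array had 15820 to 15832 probes at or above it, so the normalized arrays were nearly alike in distribution at this level. A shift of most genes in 1 direction may therefore not show in the shares called higher and lower. Precision is limited by the 4 arrays of a group. A probe stayed in where 4 or more arrays detected it (16706 probes). Names come from the platform annotation (34885 probes with 1 symbol, 18 with several, 10378 not listed), updated by gene ID to RefSeq GRCm38.p6, and each gene is represented by its brightest kept probe.

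One limma 3.58.1 model (R 4.3.3) held the 3 groups (9 residual degrees of freedom, variance trend), with Benjamini-Hochberg adjustment over all kept probes per comparison, two-sided, tested on simulated data. A fold of at least N sets the brighter group's mean against the dim group's, where each dim array takes its own signal or the lowest detected value, whichever is larger. The members and lists were chosen with earlier results of these data known. Named were every member, the regulators Mdm4 and Cdkn2a, and up to 4 called genes per direction, list and clone with the largest differences. The 5 closest profiles used the root-mean-square difference of centred log2 values. The promoter sequences are from RefSeq, GRCm38.p6. Alternatives changed the background correction, offset, normalization, filter, probe choice, variance model, groups in the fit, weights, block and arrays.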

Additional observations from a re-analysis of the deposited data

Results flagged for a closer look

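For the second detected probe of Fas, U17_KD replicate 4 lay below its group: its log2 intensity was 7.87, against 8.13 to 8.16 on the other 3 U17_KD arrays. This was the only 1 of 51 groups of 4 arrays, over the kept probes of the p53 target genes, in which an array lay that far out, and chance alone gives about 1 in 20.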

How the results depend on the processing

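Each result was recomputed under 23 alternatives. For the p53 target genes, the counts of calls in U17_KD minus WT (5, range 4 to 5) and in U17_KD minus U17_OE (5, range 5 to 6) stayed within 1.5 times. In U17_OE minus WT the count of 2 became 1 with no filter on dim probes, with no variance trend, with only the compared groups in the fit and with the replicate block, and was 1 to 3 when single arrays were left out; in each case of 1 the remaining call was Fas. For same-numbered arrays the correlation of deviations from the group means was -0.382 to 0.0891 (12 pairs). Differently numbered arrays were not set beside them, so a shared batch of same-numbered arrays was not tested. The replicate block gave Sesn1 an adjusted p of 0.0634 there and changed the call of no other member gene. Of 552 single-gene values 523 kept direction and call, 15 lost a call, 4 gained one and 10 changed sign, all 10 uncalled in both settings. These were, for U17_OE minus WT, Cdkn1a (-0.032) without U17_OE replicate 1 (0.034) or 2 (0.027), Mdm2 (-0.047) with array weights (0.029) and without U17_OE replicate 3 (0.051), and Phlda3 (0.055) without WT replicate 3 (-0.021) or U17_OE replicate 3 (-0.039). For U17_KD minus U17_OE they were Ccng1 (0.027) without U17_KD replicate 3 (-0.0047) or 4 (-0.015) and without U17_OE replicate 3 (-0.038) or 4 (-0.017). Over single arrays left out, these 4 ranged from -0.167 to 0.0337, -0.0949 to 0.0509, -0.0387 to 0.124 and -0.0375 to 0.123. Among the other lists, the regulators in U17_KD minus WT went from 4 calls to 7 with the mean of the kept probes, with only the compared groups, with array weights and without U17_OE replicate 3, and in U17_OE minus WT from 2 to 1 with the mean of the kept probes. The nucleolar list in U17_OE minus WT went from 5 to 12 without U17_OE replicate 3, to 8 with array weights, to 3 with no filter or without WT replicate 3, and to 2 with only the compared groups or without WT replicate 4 or U17_OE replicate 4. The DREAM list there went from 7 to 4 with no filter and with only the compared groups. In U17_KD minus U17_OE the regulators went from 5 to 3 with the mean of the kept probes and to 8 without U17_OE replicate 3, and the DREAM list from 6 to 10 with array weights and without U17_OE replicate 3. Over all genes, U17_OE minus WT went from 1170 calls to 1788 without U17_OE replicate 3 and to 738 with only the compared groups. Without U17_OE replicate 3, U17_KD minus WT went from 3685 to 4344 and U17_KD minus U17_OE from 3012 to 3456. The causes were not tested. A slide block was not run, as no slide is named for every array. Probes near the detection level, such as Cdkn2a and the third Sesn1 probe, carry little signal over background.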

Other observations

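The other p53 lists were also counted directly between the clones. Of the other p53 targets, 6 were higher and 7 lower in U17_KD than in U17_OE of 32 measured (median 0.092), where 16.5% and 16.5% of all genes were called. The DNA damage gene Gadd45a, chosen after its values were seen, had -0.53 in U17_KD minus WT (adjusted p = 3.10e-04) and 0.15 in U17_OE minus WT (adjusted p = 0.389), and -0.68 between the clones (adjusted p = 3.51e-05). Plk3 had -0.91 (adjusted p = 5.22e-07) and Kitl -0.91 (adjusted p = 5.05e-05). Of the regulators 4 were higher and 1 lower of 18 (median -0.025), with Mdm4 higher by 0.47 (adjusted p = 0.00705). Of the nucleolar list 2 were higher and 11 lower of 24 (median -0.18), and of the DREAM list 3 and 3 of 31 (median -0.032). The shares of 16.5% and 16.5% over all genes apply to each list here. Without U17_OE replicate 3 the regulators called were 8 and the DREAM genes called were 10, while calls over all genes went from 3012 to 3456.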
